A study of Mus musculus with 12 samples.

Results

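The Hox genes of the 4 mouse clusters were followed in colorectal tissue of mice with a mutant Apc allele. They were taken as every probe whose gene name in the scanner files is Hox, a cluster letter from a to d and a paralog number, which gave 45 probes of 39 genes, out of 39429 probes of 30139 genes or transcripts on the array. The genes were ordered by paralog group and called anterior (groups 1 to 3, 8 genes), central (4 to 8, 15 genes) or posterior (9 to 13, 16 genes). The arrays formed 3 groups of 4: polyps of Apc+/Δ716 mice, normal colorectal tissue of Apc+/Δ716 mice, and normal colorectal tissue of wild-type mice. Polyp and Apc normal arrays came from the same mice (103, 106, 107 and 110) and wild-type arrays from mice 102, 104, 105 and 108. All mice were C57BL/6N females aged 14 weeks, with no treatment recorded. The mutant mice carried the Δ716 allele, a truncating germline allele of Apc, inherited beside 1 wild-type copy. The labels do not say whether polyp cells kept the wild-type copy. RNA was made from whole tissue, so fewer cells of a type and less RNA per cell cannot be told apart, and no source says where along the colorectum each piece was taken.

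Hox genes encode homeodomain transcription factors that give cells their position along the head to tail axis. In each cluster the paralog groups lie in order along the chromosome, and genes of low group number are active further forward in the embryo than genes of high number. In the adult gut the genes stay on in a regional pattern in epithelium, mesenchyme, muscle and enteric nerve cells. Genes of group 13 mark the hindgut end, Hoxb13 and Hoxd13 are active in the distal colon and rectum, and Hox proteins bind DNA together with the TALE homeodomain proteins of the Pbx and Meis families.

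No spot was saturated, and the share of spots flagged well above background ran between 64.6% and 73.8% over the arrays. Levels below are log2 signals minus the 75th percentile of the array, and they compare 1 gene between arrays, never different genes, whose probes differ in brightness. All 10 pan-epithelial markers (Epcam, keratins and others) were well above background on all 12 arrays. Of these 10, 6 were lower in polyps than in their Apc normal counterparts (median log2 difference −0.62 over the 10), with Krt20 3.27-fold and Vil1 2.19-fold lower, and 9 were lower than in wild-type tissue. All 10 smooth muscle markers were lower in polyps, and their mean log2 level was −1.21 to 0.32 on polyp arrays, 3.17 to 3.69 on Apc normal arrays and 3.68 to 4.13 on wild-type arrays. The 9 tested markers of enteric nerve and glia lay at −5.13 to −3.88 in polyps, −2.71 to −2.22 in Apc normal tissue and −2.39 to −1.55 in wild-type tissue, with 8 of the 9 lower in polyps. Against Apc normal arrays, 2 of the 10 fibroblast and matrix markers were higher and 3 lower in polyps (median log2 difference −0.01). Their mean log2 level was 1.53 to 2.16 on polyp arrays, 1.85 to 2.58 on Apc normal arrays and 1.38 to 2.49 on wild-type arrays. The epithelial, muscle and nerve shifts run beside every lower gene below, and their part in the results was not tested.

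A probe reports the part of the transcript it covers, and some of the 45 probes cover stretches that Hox genes share. The probes of Hoxc11 and Hoxa6 are shown because such a stretch can bind RNA of a related gene. The capitals mark, in the first, codons of the amino acids WFQNRR in the third helix of the homeodomain and, in the second, codons of the hexapeptide YPWM that contacts Pbx proteins.
Hoxc11 probe (mm9, chr15:102787022-102787081): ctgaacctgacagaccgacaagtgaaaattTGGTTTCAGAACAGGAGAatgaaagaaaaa
Hoxa6 probe (mm9, chr6:52158194-52158253): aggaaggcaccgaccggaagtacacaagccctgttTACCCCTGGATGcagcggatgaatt
The file lists a transcript of Hoxd3 among the targets of the Hoxb3 probe, and it names no other Hox gene for the other 44. The values of the Hoxb3 probe are therefore uncertain between Hoxb3 and Hoxd3. The Hoxc11 probe was above background on no array, and the Hoxa6 probe on every array.

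Which Hox genes gave a signal differed between the clusters. All 11 genes of HoxA, on chromosome 6, were well above background on all 12 arrays. In HoxB (chromosome 11) this held for 5 of 10 genes, while Hoxb1, a gene of the embryonic hindbrain, was above background on no array and Hoxb8 on 2. HoxC, on chromosome 15, was the cluster with the fewest signals: only Hoxc5 was above background on all 12 arrays, and Hoxc8, Hoxc9, Hoxc11 and Hoxc13 were above it on none. Its most 3′ genes Hoxc4 and Hoxc5 and its near 5′ gene Hoxc12 were the members of HoxC that could be tested. In HoxD (chromosome 2) the anterior genes were dim, with Hoxd3 detected on no array and Hoxd1 on 1, whereas Hoxd8 to Hoxd13 were above background on 9 to 12 arrays each.

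**Figure D1:**
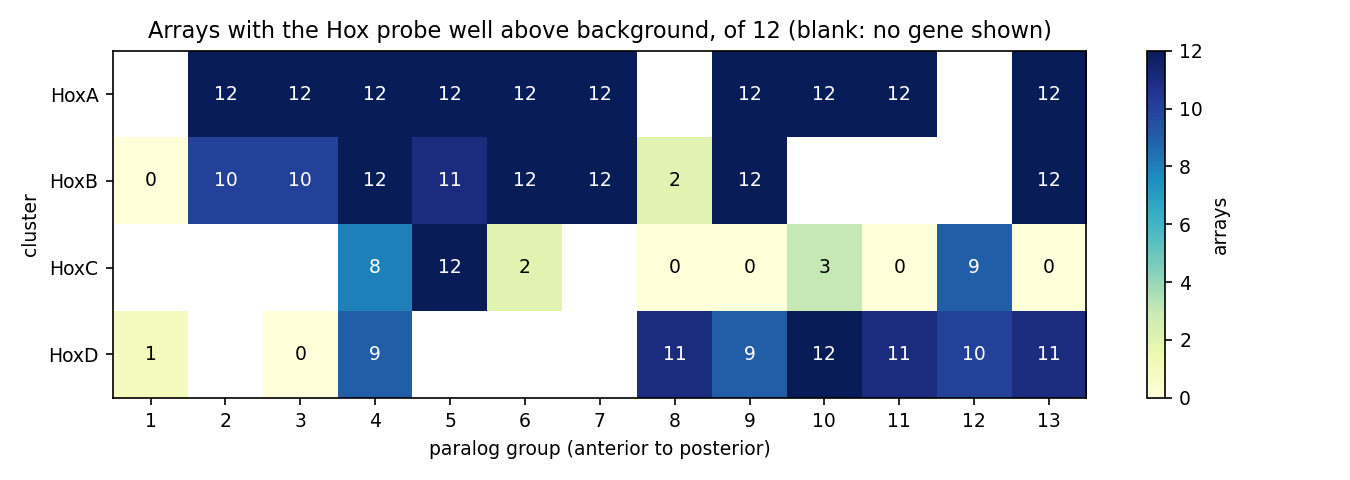
Number of the 12 arrays on which the brightest probe of each Hox gene was well above background, by cluster (rows) and paralog group (columns); white cells show no gene. HoxA reads 12 in every cell shown, HoxC reads 0 at groups 8, 9, 11 and 13, and HoxD is bright from group 8 to group 13.

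The test took a gene if some group had its brightest probe flagged well above background throughout its 4 arrays, which 29 of the 39 Hox genes met. Hoxb1, Hoxb8, Hoxc6, Hoxc8, Hoxc9, Hoxc10, Hoxc11, Hoxc13, Hoxd1 and Hoxd3 were not tested. Of the 29, 18 were above background everywhere and 6 entered through 1 group only (Hoxb2, Hoxb3, Hoxc4, Hoxd4 and Hoxd12 through wild-type tissue, Hoxd9 through polyps), so a difference in those is partly set by the entry rule. Another 5 entered through 2 groups, and the same limit holds for them. They were Hoxb5 and Hoxd8 (both normal groups), Hoxc12 (both Apc groups), and Hoxd11 and Hoxd13 (polyps and wild-type tissue).

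In polyps, set against normal tissue of the same mutant mice, Hoxa9 and Hoxa10 were higher, and Hoxb5, Hoxc4, Hoxd4, Hoxb2, Hoxa13 and Hoxc5 were lower. The test was limma with Benjamini-Hochberg adjustment over all 20082 genes tested and a threshold of 0.05, on 4 against 4 arrays. On their slides the polyp arrays lay at positions 2 and 4 and the Apc normal arrays at positions 1 and 3. Tissue and slide position therefore cannot be told apart in this comparison. The 8 genes were 27.6% of the 29 Hox genes tested, below the background of this comparison, in which 45.5% of all genes passed (20.5% higher and 24.9% lower). The median log2 difference was −0.43 over the 5 anterior genes tested, −0.50 over the 12 central and 0.79 over the 12 posterior genes, beside −0.06 over all genes tested. The posterior median rests on HoxD genes that varied widely between arrays, as given further on.

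**Figure D2:**
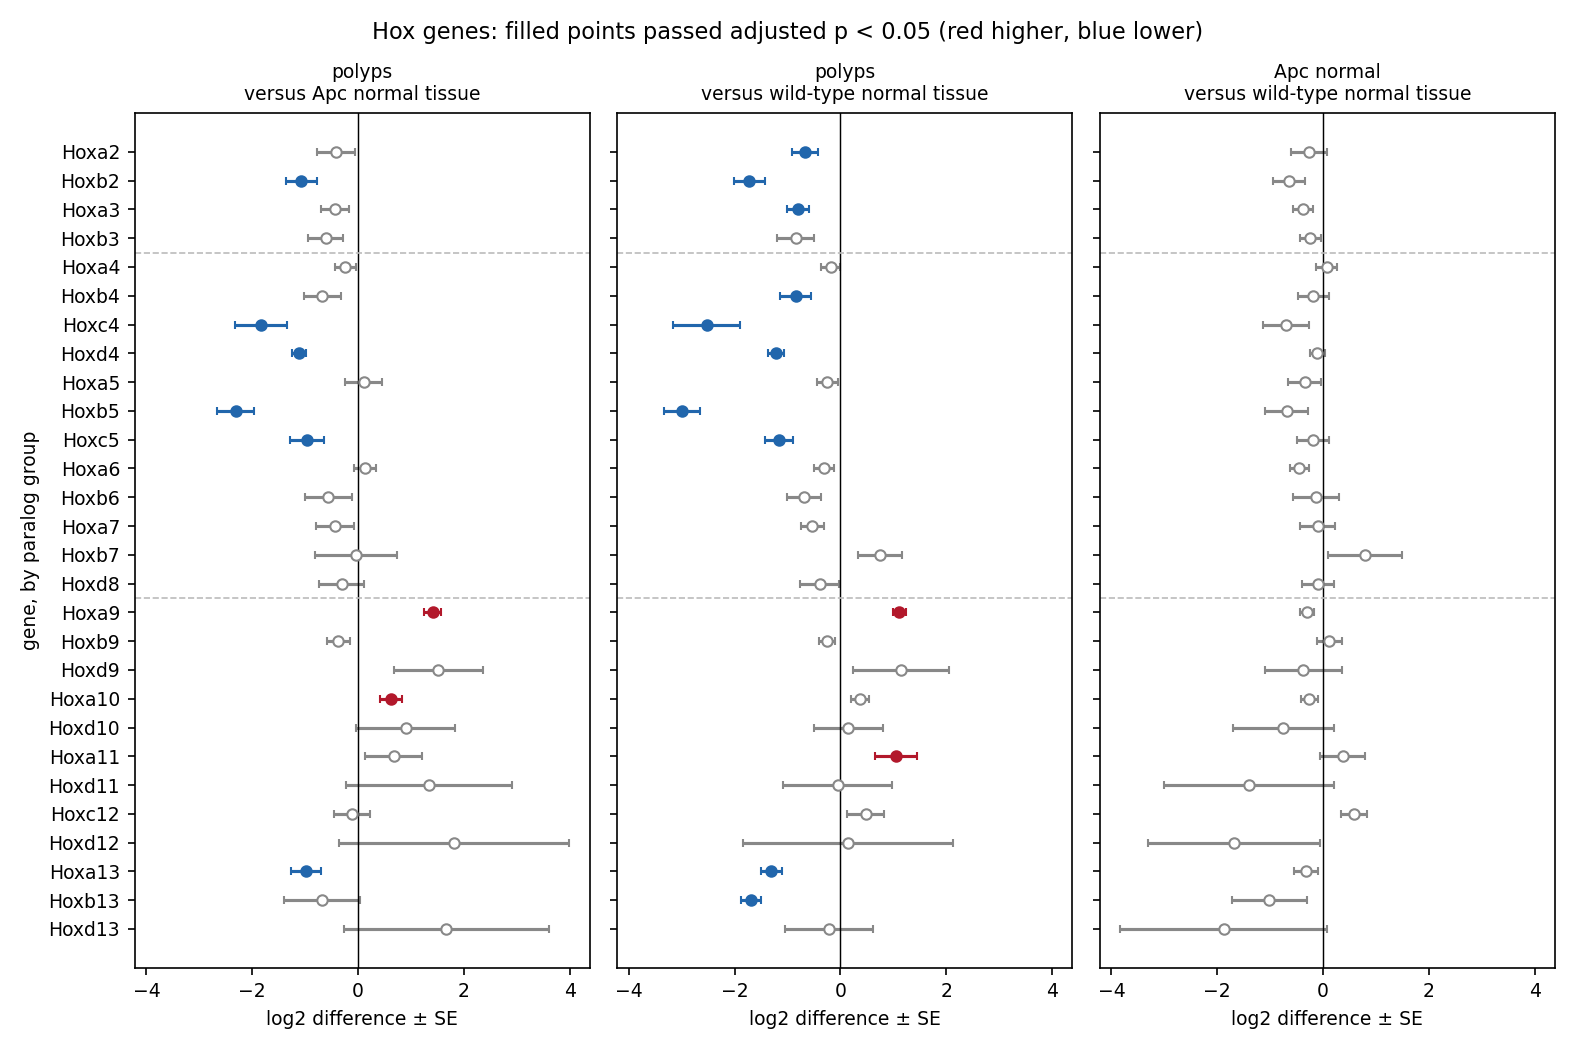
Log2 difference ± SE of 28 of the 29 tested Hox genes (rows, by paralog group; dashed lines part anterior, central and posterior genes) in the 3 comparisons (panels); filled points passed adjusted p under 0.05. Central genes lie mostly left of 0 against both normal tissues, Hoxa9 lies right of 0 against both, and no gene is filled between the 2 normal tissues.

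The largest decrease was that of Hoxb5, a central gene that acts in enteric nervous system development. On the log2 scale it stood at −5.96, −5.78, −5.17 and −5.01 on the polyp arrays of mice 103, 106, 107 and 110, at −3.29, −3.45, −2.23 and −3.72 on their normal arrays, and at −3.02, −2.82, −2.49 and −1.61 on wild-type arrays 102, 104, 105 and 108. No polyp array reached the lowest normal array, and the polyp array of mouse 103 was not well above background. Hoxb5 entered the test through both normal groups, where it is higher, so its difference is partly set by the entry rule. The mean fell to −5.48 ± 0.46 in polyps, against −3.17 ± 0.65 in Apc normal tissue (SD, n = 4 each), a log2 difference of −2.31 ± 0.35 (SE) or 4.96-fold lower, with a limma adjusted p of 0.0013. Against wild-type tissue it was −3.00 ± 0.34, or 7.97-fold lower.

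The neighbouring paralog group 4 fell in HoxC and HoxD. Hoxc4 was −7.91, −6.78, −8.03 and −5.67 in polyps, with only the last above background, against −5.35, −5.41, −5.33 and −4.95 in the normal tissue of the same mice and −5.55, −4.75, −4.68 and −3.27 in wild-type tissue. Its log2 difference between polyps and Apc normal tissue was −1.83 ± 0.49 (limma adjusted p = 0.0169), and it missed the threshold once both arrays of mouse 107 were left out (−1.55, adjusted p = 0.0676). Hoxd4 was the steadiest of the lower genes. It lay between −6.64 and −6.26 on the polyp arrays, 2 of them above background, between −5.40 and −5.08 on the Apc normal arrays and between −5.50 and −4.95 on the wild-type arrays. The log2 difference from Apc normal tissue was −1.11 ± 0.13 (limma adjusted p = 0.000337). The normal array of mouse 106 was not well above background for Hoxc4 or Hoxd4. The fit took spots near background at their measured signal, so the sizes for Hoxc4 and Hoxd4 are uncertain. Their paralogs Hoxa4 and Hoxb4 did not pass, at −0.24 ± 0.20 and −0.67 ± 0.35.

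Hoxc5, next to Hoxc4, and the anterior gene Hoxb2 were the other 2 lower genes below group 9. Hoxc5 stood at −5.17, −5.95, −5.02 and −5.63 in polyps, against −3.95, −4.80, −4.01 and −5.13 in Apc normal tissue. The groups overlap, since normal tissue of mouse 110 was below the polyp of mouse 107, yet polyps were lower in 4 of 4 mice. Its unpaired difference of −0.97 ± 0.32 (limma adjusted p = 0.0391) missed the threshold in 14 of 24 alternatives, the most among the 6. These included median scaling (adjusted p = 0.0693) and the removal of single arrays, namely normal 103 (0.0924), normal 107 (0.0888), polyp 103 (0.0532), polyp 106 (0.102) and polyp 110 (0.0898). With the mouse number as a block Hoxc5 passed, at −0.97 ± 0.15 (limma adjusted p = 0.00713). Hoxb2 was −6.07, −5.11, −5.11 and −5.22 in polyps, against −4.25, −4.81, −3.72 and −4.45 in Apc normal tissue. All polyp arrays were below all normal arrays, and the log2 difference was −1.07 ± 0.29 (limma adjusted p = 0.0184). The polyp array of mouse 103 and the normal array of mouse 106 were not well above background for Hoxb2. For these dim genes the size depended on the background step: with normexp correction (offset 50) and quantile normalization, Hoxb5 gave −1.11, Hoxc4 −0.45, Hoxb2 −0.35 and Hoxd4 −0.28, these 4 still past the threshold, whereas Hoxc5 gave −0.34 and was lost (adjusted p = 0.109). Among the other anterior genes tested, the differences were −0.41 ± 0.36 for Hoxa2, −0.43 ± 0.26 for Hoxa3 and −0.61 ± 0.33 for the uncertain Hoxb3 probe. A second Hoxa3 probe gave 0.04 ± 0.25 (limma adjusted p = 0.915).

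Hoxa9, a posterior gene best known as a driver of blood cell precursor growth, was the Hox gene with the clearest increase. Its level was −0.54, −0.84, −0.97 and −0.99 in the polyps of mice 103, 106, 107 and 110, against −1.99, −2.49, −2.10 and −2.40 in their normal tissue and −2.0, −2.04, −1.84 and −1.91 in wild-type tissue. Every polyp array was above every normal array of either genotype. The mean was −0.84 ± 0.21 in polyps and −2.24 ± 0.24 in Apc normal tissue (SD, n = 4 each), a log2 difference of 1.41 ± 0.16 or 2.65-fold higher (limma adjusted p = 0.000331). A second Hoxa9 probe, at chr6:52174165-52174224 on mm9 where the first lies at chr6:52175595-52175654, gave 1.04 ± 0.14 (limma adjusted p = 0.000662), and under all 24 alternative settings Hoxa9 passed with differences of 1.15 to 1.55.

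Next to it on the 5′ side of the cluster, Hoxa10 was higher by 0.62 ± 0.21 (limma adjusted p = 0.0434), with 0.32, 0.07, 0.85 and 0.27 in polyps, against −0.07, −0.47, 0.10 and −0.54 in Apc normal tissue. Polyps were higher in 4 of 4 mice, but the groups overlap. The call was lost in 12 of 24 alternatives, among them median scaling (limma adjusted p = 0.0758) and leaving out mouse 107's polyp (0.47, adjusted p = 0.0918). With the mouse number as a block Hoxa10 passed, at 0.62 ± 0.12 (limma adjusted p = 0.0114). Hoxa11 was −1.83, −1.64, −0.01 and −1.67 in polyps, against −2.50, −2.15, −0.64 and −2.57 in the normal tissue of the same mice. Both arrays of mouse 107 stood far above the rest, which widens the unpaired spread (0.68 ± 0.54, limma adjusted p = 0.34). Within mice the difference was 0.51 to 0.90 in 4 of 4 mice, and with the mouse number as a block Hoxa11 passed, at 0.68 ± 0.11 (limma adjusted p = 0.00737), making 3 higher Hox genes, where 20.8% of all genes were higher and 25.6% lower.

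Hoxa13, the last gene of the cluster, went the other way. It stood at −0.37, −1.39, −1.08 and −1.0 in polyps, against 0.69, −0.39, −0.02 and −0.19 in Apc normal tissue and 0.51, 0.27, 0.36 and 0.24 in wild-type tissue. The polyp of mouse 103 was just above the normal tissue of mouse 106, so the groups overlap, but each polyp was lower than its own mouse's normal tissue by 0.80 to 1.06. The log2 difference was −0.98 ± 0.29 (limma adjusted p = 0.0235), and a second probe gave −1.18 ± 0.28 (0.01). The first call ended when polyp 106 (adjusted p = 0.0659), 107 (0.057) or 110 (0.0535) was left out, and it held with the mouse number as a block (0.00233). Thus, along HoxA, polyps were higher at groups 9 and 10 and lower at group 13. Of these calls, those at groups 10 and 13 were lost in 12 and 6 of 24 alternatives.

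**Figure D3:**
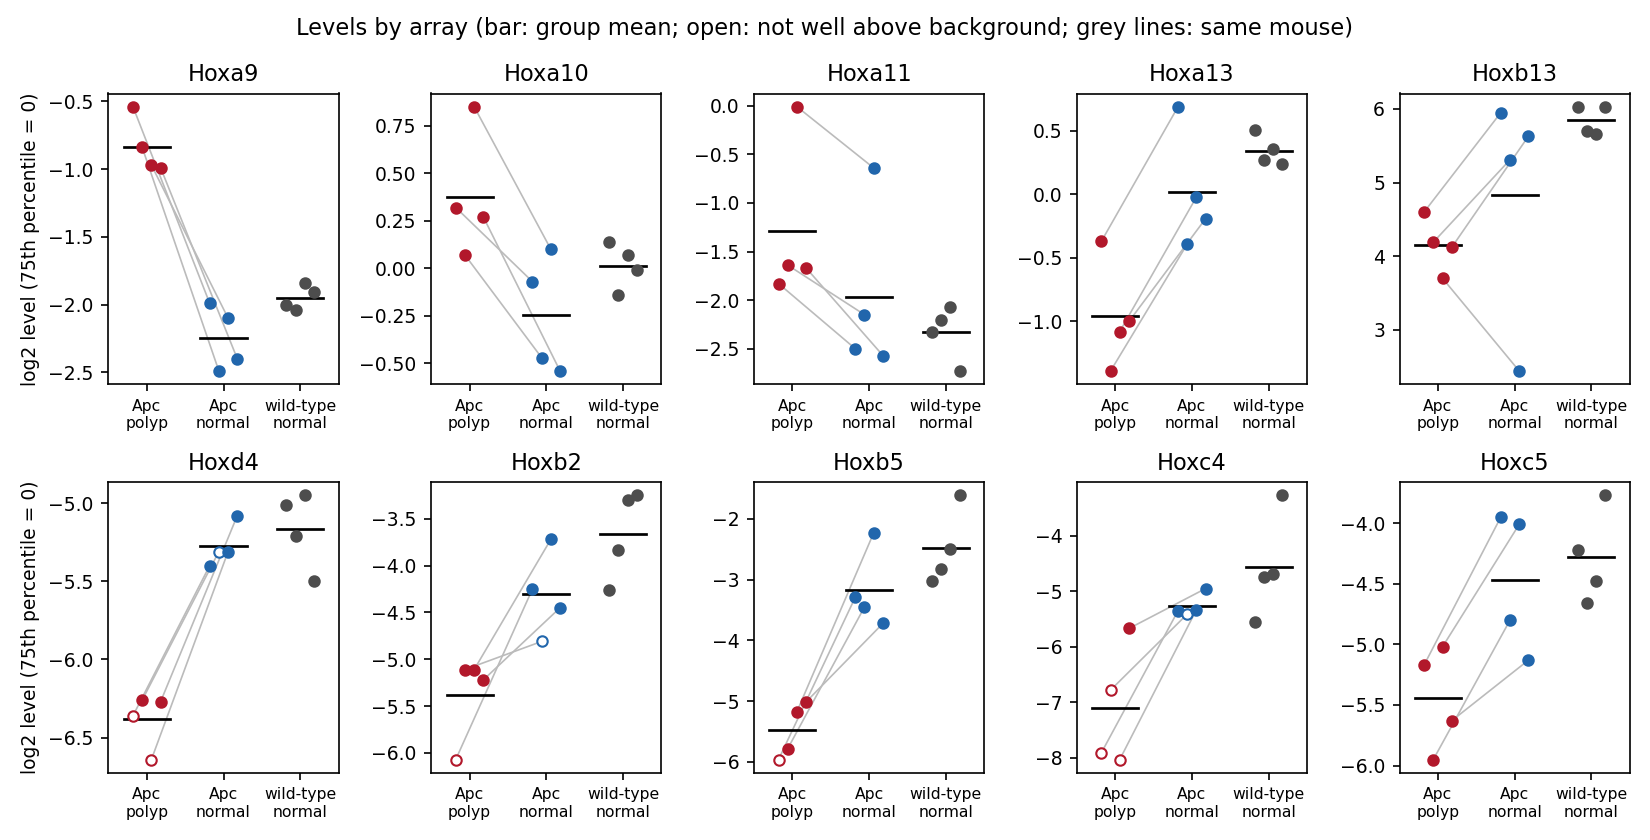
Log2 level (75th percentile of the array = 0) on each array for the 8 Hox genes that passed between polyps and Apc normal tissue, with Hoxa11 and Hoxb13; red, Apc polyp; blue, Apc normal; grey, wild-type normal; bars are group means, open points were not well above background and grey lines join arrays of 1 mouse. The lines of Hoxa9, Hoxa10 and Hoxa11 run downwards from polyp to normal in all 4 mice and those of Hoxa13, Hoxb2, Hoxb5, Hoxc4, Hoxc5 and Hoxd4 upwards, while Hoxb13 has 1 line, of mouse 107, against the other 3.

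The stretches just upstream of Hoxa9 and Hoxa13 are shown because these genes of 1 cluster changed in opposite directions. They are the 250 bases before the start site from RefSeq on GRCm38.p6, with CG dinucleotides in capitals.
Hoxa9 (chr6:52227371-52227620, minus strand): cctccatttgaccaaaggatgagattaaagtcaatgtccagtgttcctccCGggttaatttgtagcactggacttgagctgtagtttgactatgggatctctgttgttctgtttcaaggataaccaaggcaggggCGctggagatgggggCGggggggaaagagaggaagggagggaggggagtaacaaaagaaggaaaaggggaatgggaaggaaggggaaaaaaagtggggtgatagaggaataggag
Hoxa13 (chr6:52260881-52261130, minus strand): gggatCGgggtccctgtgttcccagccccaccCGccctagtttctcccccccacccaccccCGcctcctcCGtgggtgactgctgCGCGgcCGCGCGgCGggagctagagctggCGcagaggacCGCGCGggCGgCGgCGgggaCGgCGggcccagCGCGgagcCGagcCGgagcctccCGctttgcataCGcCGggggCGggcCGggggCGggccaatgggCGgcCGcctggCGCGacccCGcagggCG
The Hoxa9 stretch holds 3 CG dinucleotides and the Hoxa13 stretch 35, beside a median of 6 over all 32851 promoters in the table and 12.5 over the 24 promoters of 22 Hox genes found there. Neither holds, on either strand, CAATAAA, which Cdx and posterior Hox proteins bind, or TGATNNAT, a joint Pbx and Hox site. These letters occur in 4.2% and 7.68% of all promoters. Methylation and binding were not measured.

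Besides Hoxa13, 2 other genes of group 13 gave a signal, and in both the difference from Apc normal tissue depended on 1 library. Hoxb13 stood at 4.60, 4.19, 3.70 and 4.12 in the polyps of mice 103, 106, 107 and 110, and at 5.95, 5.31, 2.44 and 5.63 in their normal tissue, with wild-type tissue at 5.66 to 6.03. The normal tissue of mouse 107 was therefore lower than every polyp, while the other normal arrays of both genotypes were higher. Over all arrays the difference between polyps and Apc normal tissue was −0.68 ± 0.72 and did not pass (limma adjusted p = 0.47). Without the normal array of mouse 107 it was −1.48 (limma adjusted p = 0.00282), and without both arrays of that mouse −1.33 (0.00618). Against wild-type tissue Hoxb13 was 3.26-fold lower (log2 difference −1.70 ± 0.19, limma adjusted p = 0.000141).

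Hoxd13 and the genes next to it, Hoxd10 to Hoxd12, differed between arrays of a group far more than between groups. Hoxd13 was 1.94, 1.14, −1.09 and −0.08 in polyps, 0.23, 1.02, −7.57 and 1.55 in Apc normal tissue and 2.0, −1.04, 1.53 and 0.26 in wild-type tissue. Normal tissue of mouse 107 was not above background for Hoxd11, Hoxd12 or Hoxd13, and neither array of mouse 107 was for Hoxd12. Hoxd12 spanned 9.23 log2 units among the 4 polyps, with 1.61 in mouse 103 and −7.62, below background, in mouse 107, and 4.47 units among the wild-type arrays, with −0.22 and −0.05 in mice 102 and 105 against −4.53 and −3.36 in mice 104 and 108. The pooled standard deviation within groups was 3.17 for Hoxd12, 2.71 for Hoxd13 and 2.33 for Hoxd11, ranks 5, 14 and 24 among the 20082 genes tested, whose median was 0.25. Of the 29 Hox genes, 27 lay above that median.

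The 4 genes ranked the arrays alike in both tissues of the Apc mice. In polyps, Hoxd10, Hoxd11, Hoxd12 and Hoxd13 were each lowest in mouse 107, then 110, 106 and 103; in Apc normal tissue each was lowest in mouse 107, then 103, 106 and 110. Both orders together held for 82 genes, 0.408% of those tested, and these 4 were the only Hox genes among them. In wild-type tissue Hoxd11 and Hoxd13 shared 1 order and Hoxd10 and Hoxd12 another, and over all 3 groups only Hoxd11 kept the order of Hoxd13. All 4 were lower in mice 104 and 108 than in mice 102 and 105, as were Hoxd4, Hoxd8, Hoxd9, Hoxa10 and Hoxa13, a split that 16.3% of all genes tested showed. The order within a mouse was not kept between its tissues: mouse 103 had the highest polyp and the next to lowest normal tissue. Mice 102 and 105 lay at positions 1 and 3 of their slide and mice 104 and 108 at positions 2 and 4. Mouse and slide position therefore cannot be told apart in this split.

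**Figure D4:**
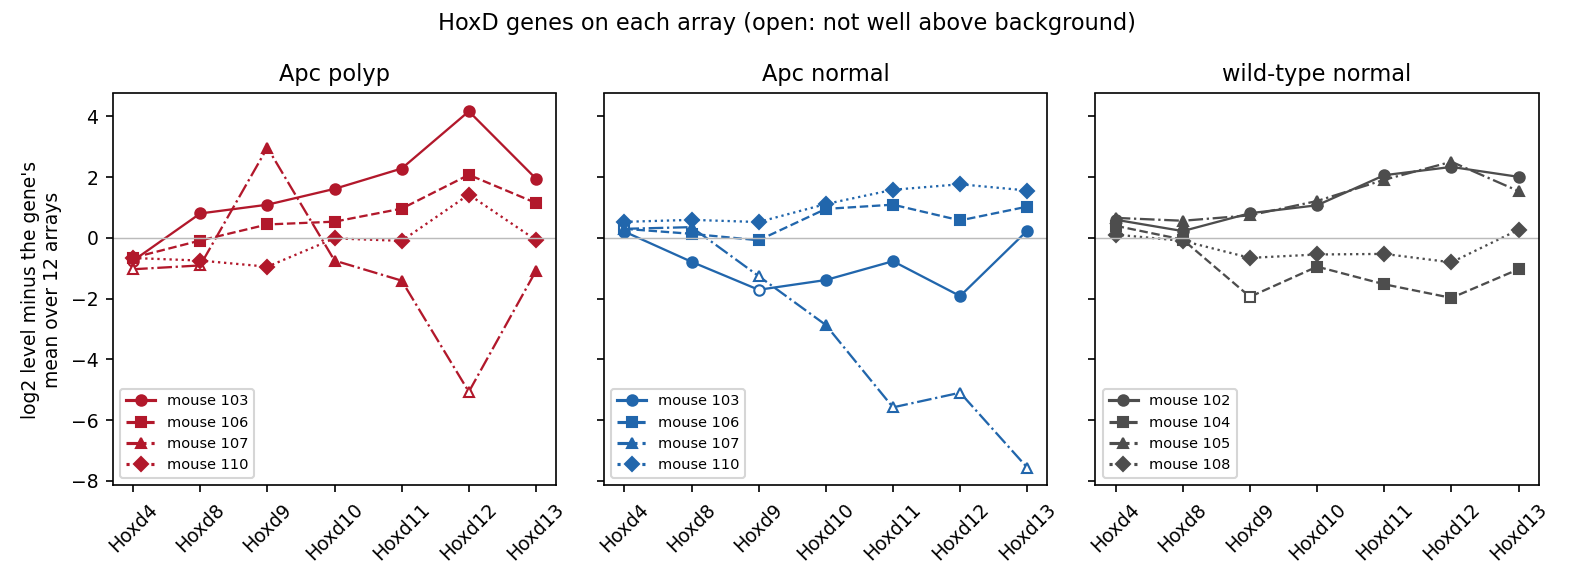
Log2 level of each tested HoxD gene minus its own mean over the 12 arrays, by array (lines and symbols: mice) and group (panels); open points were not well above background. Lines lie closer together at Hoxd4 and Hoxd8 than from Hoxd9 to Hoxd13 in every group, with mouse 107 lowest from Hoxd10 to Hoxd13 in both Apc panels and mice 104 and 108 below mice 102 and 105 in the wild-type panel.

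None of these differences between groups passed the test. Between polyps and Apc normal tissue they were 0.90 ± 0.94 for Hoxd10, 1.35 ± 1.57 for Hoxd11, 1.82 ± 2.17 for Hoxd12 and 1.67 ± 1.94 for Hoxd13, with limma adjusted p between 0.469 and 0.526. Without the normal array of mouse 107, Hoxd11 and Hoxd13 turned to −0.20 and −0.46. Hoxd9 differed from its neighbours in mouse 107, whose polyp was the highest of all 12 arrays at −1.44, and gave 1.52 ± 0.84 (adjusted p = 0.173). Hoxd8 gave −0.31 ± 0.43 (0.592). A second Hoxd11 probe followed the first, at −0.19, −1.60, −3.75 and −2.52 in polyps, against −0.07, −1.39, −3.76 and −2.45 for the probe used. The stretches before Hoxd12 and Hoxd13, the most variable members, are given in the same form as above.
Hoxd12 (chr2:74674763-74675012, plus strand): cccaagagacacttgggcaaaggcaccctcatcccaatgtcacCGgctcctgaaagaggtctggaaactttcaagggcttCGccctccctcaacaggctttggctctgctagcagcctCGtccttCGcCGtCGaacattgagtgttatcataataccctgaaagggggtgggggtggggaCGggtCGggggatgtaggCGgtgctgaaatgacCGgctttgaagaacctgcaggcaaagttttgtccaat
Hoxd13 (chr2:74667975-74668224, plus strand): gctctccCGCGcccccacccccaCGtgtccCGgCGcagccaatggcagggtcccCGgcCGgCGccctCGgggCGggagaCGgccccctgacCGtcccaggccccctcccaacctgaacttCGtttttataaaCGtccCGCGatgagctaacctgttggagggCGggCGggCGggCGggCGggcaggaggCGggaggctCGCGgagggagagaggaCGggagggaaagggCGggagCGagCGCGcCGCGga
They hold 10 and 31 CG dinucleotides and neither of the 2 motifs.

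The normal tissue of mouse 107 also stood apart in central HoxB genes. Hoxb7, active in the posterior trunk of the embryo, was −0.44 there, against −4.12, −3.06 and −2.71 in the other Apc normal arrays, and Hoxb6 was −1.28, against −3.33, −2.41 and −2.53. Hoxb8 was above background at −5.22 there and elsewhere only in the polyp of mouse 106 (−6.25). Over the 29 genes, 8 lay more than 1 log2 unit from their group mean on this array and 1 to 6 on every other array. Other genes differed on it too. Fabp2, a fatty acid binding protein made mainly by small intestinal enterocytes, was 7.49, against 2.02 to 3.89 in the other Apc normal arrays. Among the other small intestine markers, Gata4 (−3.87) and Apoa4 (−4.18) were also highest on it. Apoc3, Itln1, Onecut2 and Pdx1 lay within the range of the other Apc normal arrays. The mean log2 level of 6 adipocyte markers was 1.79 on it, against −2.33 to 0.45. The part of these differences in the Hox values was not tested. Without both arrays of mouse 107, Hoxa9, Hoxa10 and Hoxa11 were higher in polyps, where 16.7% of all genes were, and Hoxb5, Hoxd4, Hoxb2 and Hoxb13 were lower, where 21.1% were.

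**Figure D5:**
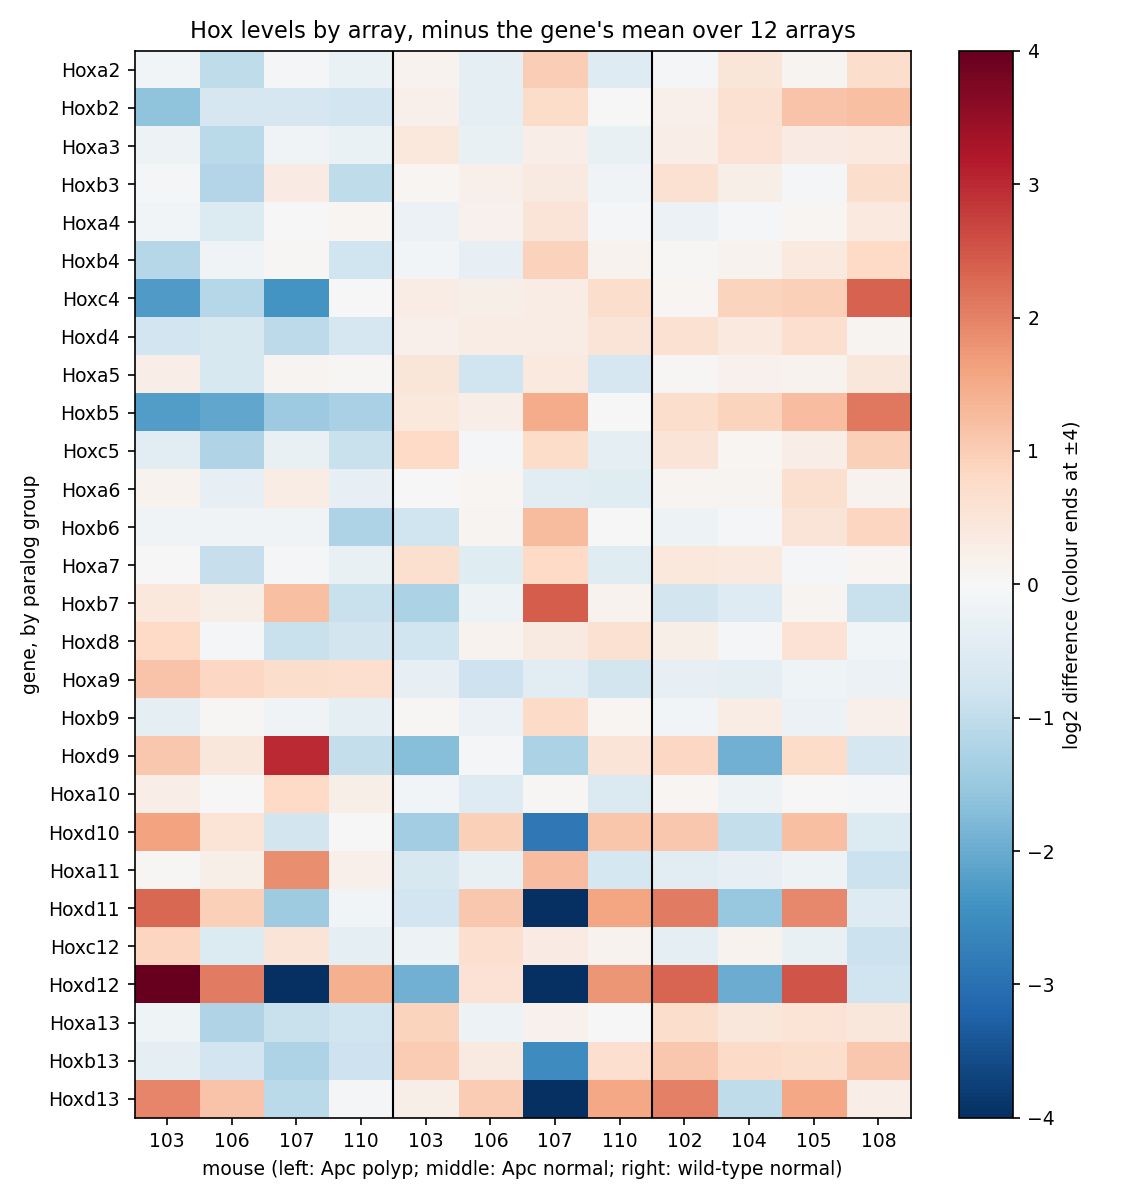
Log2 level of 28 of the 29 tested Hox genes (rows, by paralog group) on each array (columns, by mouse; left to right Apc polyp, Apc normal, wild-type normal), minus the gene's mean over the 12 arrays; red is above and blue below the mean, and colours end at 4 log2 units. The column of mouse 107 in Apc normal tissue is the darkest, blue from Hoxd10 to Hoxd13 and at Hoxb13 and red at Hoxb7 and Hoxb6, and the row of Hoxb5 is blue in all 4 polyps.

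Set against wild-type tissue, polyps had 2 higher and 10 lower Hox genes, 41.4% of the 29 tested, beside 60.2% of all genes (27.4% higher and 32.8% lower). This comparison shares the polyp arrays with the one above, so the overlap of genes is not separate evidence. Hoxa9 was higher by 1.11 ± 0.12 and Hoxa11 by 1.05 ± 0.40 (limma adjusted p = 9.88e-05 and 0.0487), the second lost in 11 of its alternatives. Besides Hoxb5, Hoxb13, Hoxc4 (−2.53 ± 0.63), Hoxb2 (−1.72 ± 0.30), Hoxa13 (−1.31 ± 0.20), Hoxd4 (−1.22 ± 0.15) and Hoxc5 (−1.16 ± 0.26), the lower genes were Hoxb4 (−0.85 ± 0.29), Hoxa3 (−0.81 ± 0.21) and Hoxa2 (−0.67 ± 0.25). Hoxc4, Hoxb2 and Hoxd4 were tested only because wild-type tissue, where they are higher, met the entry rule, so their calls here are partly set by it. Hoxb5 met the rule only through both normal groups, where it is higher, so its call is partly set by it too. Hoxa2 lost its call in 9 of 19 alternatives, including all 12 arrays in 1 fit (adjusted p = 0.107), and when wild-type 104, 105 or 108 or polyp 106 or 110 was left out (0.0604 to 0.114). Hoxb4 lost it in 5, without filter (0.0518) and when wild-type 105 or 108 or polyp 103 or 110 was left out (0.0671 to 0.0819). Hoxa3, which acts in pharyngeal organ development, was −1.0, −1.89, −0.94 and −1.07 in polyps, against −0.53, −0.23, −0.49 and −0.42 in wild-type tissue, with no overlap (limma adjusted p = 0.0111). The second Hoxa3 probe gave −0.68 ± 0.24 (limma adjusted p = 0.036), with groups that overlap. On mm9 it lies at chr6:52149150-52149208, between the probes of Hoxa4 and Hoxa5, where the first lies at chr6:52119087-52119146. Hoxb4 was −4.92, −3.90, −3.74 and −4.56, against −3.73, −3.63, −3.38 and −2.97, just without overlap (0.033). All wild-type arrays shared a slide of their own, so genotype and slide cannot be told apart here.

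Between the normal tissues of Apc mutant and wild-type mice no Hox gene passed limma's test, at a background of 0.149% higher and 0.0199% lower genes. Wild-type arrays had a slide of their own, so genotype and slide cannot be told apart here either. Of the 29, 2 had an unadjusted p under 0.05, Hoxa6 (−0.45 ± 0.18) and Hoxc12 (0.59 ± 0.25). The share of all genes under that limit was not counted, so these 2 are not read as a result. The second Hoxa3 probe, which did not stand for the gene, gave −0.72 ± 0.16 (limma unadjusted p = 0.00222, adjusted p = 0.114), with no overlap. Its means were −4.97 in polyps, −5.01 in Apc normal tissue and −4.29 in wild-type tissue, and it is not read as a result either. Hoxc12 entered the test through the 2 Apc groups and was above background on 1 wild-type array. Its difference is therefore partly set by the entry rule. The median difference over the Hox genes, which were read on the same arrays and are not independent, was −0.30, beside −0.02 over all genes. The largest were −1.88 ± 1.95 for Hoxd13 and −1.68 ± 1.63 for Hoxd12, carried by the normal array of mouse 107: without it Hoxd13 was 0.25. In the simulated data of this comparison, 46% of genes changed by 1 log2 unit were recovered, so changes of that size could be missed.

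Among the TALE cofactors, polyps had 4 of 11 tested genes lower and 1 higher when set against Apc normal tissue, where 24.9% of all genes were lower and 20.5% higher. Meis1, the main partner of posterior Hox proteins in blood cells, fell by 1.90 ± 0.20 (limma adjusted p = 0.000263), and Meis3 (−0.76 ± 0.17, 0.00699), Pbx3 (−0.83 ± 0.13, 0.00139) and Pknox2 (−0.72 ± 0.21, 0.0246) were lower. Tgif1, a repressor of TGF-β and retinoid responses, was higher by 1.97 ± 0.17 (0.000118). Pbx2 and Pbx4 gave 0.19 ± 0.16 and −0.01 ± 0.34, and Meis2 −0.44 ± 0.22, none past the threshold. The Cdx genes encode gut homeobox factors that act upstream of Hox genes in the embryo. Cdx1 fell by 1.69 ± 0.17 (0.000233), while Cdx2 spread over −2.98 to 0.79 in polyps and −0.65 to 3.29 in Apc normal tissue and did not pass (−2.37 ± 1.14, 0.126).

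Of 11 genes that flank the clusters, 3 were higher and 2 lower in polyps, at the same background. Evx1, a homeobox gene next to Hoxa13, was 1.67, 0.94, 0.29 and 0.72 in polyps, against −2.11, −3.00, −1.64 and −2.98 in Apc normal tissue and −4.23, −2.97, −3.91 and −3.37 in wild-type tissue. It was higher by 3.34 ± 0.39 or 10.1-fold (limma adjusted p = 0.000381), opposite to Hoxa13 beside it. Hibadh, further out on that side and an enzyme of valine breakdown, fell by 0.77 ± 0.09 (0.000465), and Cbx5, beside Hoxc4, was higher by 0.66 ± 0.12 (0.00245). Evx2, next to Hoxd13 and named after its values were seen, did not follow it: it was −0.96 in the normal tissue of mouse 107 and −0.91 in that of mouse 103, but also −1.29 in wild-type mouse 102, where Hoxd13 was highest, and 1.95 to 3.19 on the other 9 arrays. The 2 tested noncoding genes of the clusters, Hoxa11os and Hoxaas3, gave −0.49 ± 0.22 and 0.01 ± 0.28 and did not pass. Hoxa11os is read from the strand opposite Hoxa11.

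Lists of known Hox regulators held both directions, beside the same 20.5% of all genes higher and 24.9% lower. Of 22 Polycomb and Trithorax genes tested, which silence or maintain Hox clusters, 6 were higher and 1 lower, led by Ezh2 (1.45 ± 0.18, limma adjusted p = 0.000452), Suz12 (0.71 ± 0.10, 0.000699) and Ash2l (0.69 ± 0.10, 0.00111), with Ezh1 lower. Of 14 retinoid genes, whose signal switches on 3′ Hox genes in the embryo, 4 were higher and 3 lower, led by Rxra (−1.37 ± 0.15, 0.000279), Aldh1a3 (4.43 ± 0.49, 0.000296) and Rdh10 (1.79 ± 0.21, 0.000375). Of 7 other regulators, 4 were higher and 1 lower. Gdf11, which sets the trunk to tail transition in mice, was higher by 3.47 ± 0.41 (0.000412), and Egr2, a hindbrain regulator of Hoxb2, by 2.84 ± 0.36 (0.000561). In these lists, the medians were 0.34, 0.06 and 0.82, beside −0.06 over all genes tested.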

How the data were processed

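RNA of whole colorectal tissue was labelled with Cy3 and hybridised to 12 single-colour Agilent mouse arrays, and groups were read from genotype and tissue in the sample titles. The deposited spot intensity (a background-subtracted processed signal on a linear scale) and the flags for spots well above background came, per the file headers, from Agilent Feature Extraction 10.7.3.1, with probe positions on mm9. The deposited value table, a linear ratio per the file headers' scale, held on each array 99.82% to 99.87% of entries that differed from the scanner signal over 1 constant by under 1%, with column medians of 0.9999 to 1, so scale and direction match the scanner values and no centring per gene was seen, and the sources used here do not state how it was made.

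Control spots and 1403 outlier spots were dropped, log2 signals were averaged per probe, and the array's 75th percentile was subtracted. Of 39429 probes, 27508 were named by accession, 3544 by symbol and 404 by synonym through RefSeq's GRCm38.p6 table (used for names), while 7973 stayed as in the file. The brightest probe stood for a gene; 6 Hox genes had 2. Tests covered the 20082 genes with a probe flagged well above background throughout some group, with limma 3.58.1 in R 4.3.3 (lmFit, eBayes, two-sided, own 8 arrays per comparison, Benjamini-Hochberg). The number of arrays limits precision, and separate mice are the replicates. Every Hox gene is named or counted, per-array values go to those that passed, and from each other list the 3 called genes of smallest p and the Pbx, Meis and Cdx genes are named; a few genes and 1 probe sequence that these rules cover are not reported here. The members, lists and rules were chosen with earlier results of these data known.

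Polyp and normal arrays of 1 mouse pair through the numbers in their titles. Their deviations correlated at r = 0.455, 0.17, 0.143 and 0.283 across genes, beside −0.329 to 0.193 between mice, so the ranges overlap. Arrays of 1 mouse also lay side by side on a slide, so mouse and place on the slide cannot be told apart in these values. The wild-type arrays filled slide 1; mice 103 and 106 shared slide 2, and mice 107 and 110 slide 3. On simulated data for polyps against Apc normal tissue (20082 genes), 6%, 44%, 86% and 88% of 50 genes each, changed by 0.5, 1, 2 and 3 log2 units, were recovered. No other genes were changed there, while 45.5% of all genes passed in the data. The adjustment was therefore stricter in the simulation, and these shares do not carry over directly. Alternatives covered scaling, background, filters, probes, fits, slides, the mouse as a block and each array left out; leaving out mouse 107 was chosen after seeing the data.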

Additional observations from a re-analysis of the deposited data

Results flagged for a closer look

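In 7 of the 87 sets of 4 arrays (29 Hox genes in 3 groups), 1 array lay so far from the other 3 that its gap passed Dixon's critical value for 4 values; chance alone flags about 1 set in 20. In polyps, Hoxa3 was lowest in mouse 106 at −1.89 (others −1.07 to −0.94), Hoxa11 highest in mouse 107 at −0.01 (others −1.83 to −1.64), Hoxb2 lowest in mouse 103 at −6.07 (others −5.22 to −5.11) and Hoxb6 lowest in mouse 110 at −3.77 (others −2.68 to −2.66). In Apc normal tissue, Hoxc4 was highest in mouse 110 at −4.95 (others −5.41 to −5.33) and Hoxd13 lowest in mouse 107 at −7.57 (others 0.23 to 1.55). In wild-type tissue, Hoxa6 was highest in mouse 105 at −2.58 (others −3.09 to −3.06). The arrays concerned came from 5 mice, with mouse 107 and mouse 110 each named 2 times.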

How the results depend on the processing

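The limits are 4 arrays a group, whole tissue, 10 Hox genes too dim to test, and wild-type arrays on a slide of their own. Polyp and Apc normal arrays also lay at different slide positions. No Hox gene passed between the 2 normal tissues under any alternative run. Between polyps and Apc normal tissue, the 2 higher genes became 1 under median scaling, the deposited value table, no filter, slide as a fixed block, slide 2 alone and slide 3 alone, since Hoxa10 was lost in each, and were 1 to 2 when arrays were left out in turn. The 6 lower genes became 2 under the stricter filter, which tests only 19 Hox genes, and 2 on slide 2 alone (Hoxb5 and Hoxd4); on slide 3 alone, with fewer arrays, none of the 6 passed and the 1 lower gene was Hoxd8 (−1.3, adjusted p = 0.0405). They were 4 to 6 with arrays left out. Hoxc5 was lost under median scaling, quantile normalization, normexp with quantile, the deposited value table, no filter and slide as a fixed block (adjusted p 0.0569 to 0.109). With the mouse number as a block, 3 were higher and 6 lower; the block changed no call but that of Hoxa11. Between polyps and wild-type tissue, the 2 higher became 1 under quantile normalization, normexp with quantile, all 12 arrays in 1 fit and slide as a random block, each time losing Hoxa11, and 1 to 2 with arrays left out; the 10 lower became 6 under the stricter filter and 8 to 11 with arrays left out. Hoxa2 was lost with no filter (0.0747), all 12 arrays (0.107), trend and robust fitting (0.0525) and slide as a random block (0.0733), and Hoxb4 with no filter (0.0518).

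Of 978 differences recomputed, 885 kept sign and side of the threshold, 64 lost the call, 6 gained it and 23 changed sign, none of the last a gene that had passed. For polyps against Apc normal tissue, sign changed without the polyp array of mouse 103 for Hoxa5 (−0.0011); without the normal array of mouse 106 for Hoxa5 (−0.11) and Hoxc12 (0.03), of mouse 107 for Hoxb7 (0.67), Hoxd11 (−0.20) and Hoxd13 (−0.46), and of mouse 110 for Hoxa5 (−0.07); without the polyp array of mouse 106 for Hoxc12 (0.11) and of mouse 110 for Hoxb7 (0.34) and Hoxc12 (0.05); without both arrays of mouse 107 for Hoxa6 (−0.05), Hoxb7 (0.35) and Hoxd8 (0.0092); with normexp for Hoxc12 (0.04); on slide 2 alone for Hoxa5 (−0.0071), Hoxa6 (−0.16), Hoxb6 (0.20), Hoxb7 (1.05) and Hoxd8 (0.68); and on slide 3 alone for Hoxd12 (−0.16). For Apc normal against wild-type tissue it changed without the normal array of mouse 107 for Hoxd10 (0.02), Hoxd11 (0.16) and Hoxd13 (0.25). With single arrays left out, these ran from −0.11 to 0.32 for Hoxa5, −0.56 to 0.67 for Hoxb7, −0.36 to 0.11 for Hoxc12, −0.20 to 2.19 for Hoxd11 and −0.46 to 2.58 for Hoxd13 in the first comparison, and from −1.30 to 0.02 for Hoxd10, −2.23 to 0.16 for Hoxd11 and −2.79 to 0.25 for Hoxd13 in the second. Where no fewer arrays or genes explain a change, the cause was not tested.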
